A study of Homo sapiens with 6 samples.

Results

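The ID genes and BMP signalling were described across 3 human lung cancer lines and their drug-resistant sublines through 10 genes, of 21463 in the deposited tables. They are the targets ID1, ID2 and ID3, the ligands BMP2, BMP4 and BMP7, the receptors BMPR1A and BMPR2, and the inhibitors SMAD6 and BAMBI. The genes were taken by name and had been chosen with their resistant-to-parental differences known, so those differences are given as a description without a test. Messenger RNA was sequenced from 1 library per line and state, 6 libraries in all. HCC827-GR and PC9-GR come from HCC827 and PC9, non-small cell lung cancer lines whose EGFR mutation is given as E19Del, after growth in gefitinib, which blocks the EGFR kinase reversibly. H1975-OR comes from H1975, with the EGFR mutations L858R/T790M, after growth in osimertinib, which binds EGFR covalently, the T790M form included. The 3 parental libraries are labelled Nontreated. Per the labels the drug was raised over 90 days, after which half-maximal inhibition took 4.288 to 12.485 µM in resistant lines, against 0.016 to 0.07 µM in parental lines. Whether a subline grew from 1 clone, and whether drug was present when RNA was taken, is not given in the sources used here.

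Bone morphogenetic proteins bind a pair of type I and type II receptor kinases, which phosphorylate SMAD1, SMAD5 and SMAD9. With SMAD4 these enter the nucleus and switch on the ID genes, and also SMAD6, SMAD7 and BAMBI, which feed back to damp the signal. ID proteins have a helix-loop-helix but no DNA-binding basic region. They pair with E proteins and keep them from DNA, and in epithelial tumours they are known as markers of an undifferentiated, growing state. ID1 is also induced by other inputs, among them growth factor signalling.

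Libraries held 24463011 to 29366085 exon reads in the resistant and 21222102 to 28140012 in the parental lines. Levels are CPM (counts scaled to library size, with TMM factors), and comparisons between genes use the deposited TPM, which also divide by exon length. A count of 0 allowed up to 0.0985 to 0.145 CPM, and all intervals cover counting error only. Each line had 1 library per state, so nothing within a line has a replicate. Checked against the epithelial label, the summed level of EPCAM, CDH1 and 4 keratins was 1735 to 7571 CPM in resistant and 2764 to 13360 CPM in parental libraries. It was lower in the resistant library of every line, and all 6 of these genes were above 1 CPM except in H1975-OR (4 of 6, all keratins). The keratins carried the sum. In the PC9 pair KRT8 differed most, with 1729 CPM in PC9-GR and 2659 CPM in PC9, and KRT7 was slightly higher in PC9-GR. CDH1, the epithelial cadherin, stood at 22.1 CPM in HCC827-GR and 466.9 CPM in HCC827, 150.8 CPM in PC9-GR and 213 CPM in PC9, and 0.131 CPM in H1975-OR and 22.4 CPM in H1975. EPCAM stood at 10.6 CPM in HCC827-GR and 432.5 CPM in HCC827, and at 0.460 CPM in H1975-OR and 26.6 CPM in H1975. In the PC9 pair EPCAM was about level, with 732.5 CPM in PC9-GR and 745.4 CPM in PC9. In H1975-OR CDH1 and EPCAM, defining epithelial markers, were thus near 0 while keratins were present. The summed level of VIM, CDH2, FN1 and ZEB1, markers of a mesenchymal state, was 893 to 3961 CPM in resistant and 161 to 3123 CPM in parental libraries, higher in the resistant library of every line. The lung lineage genes NKX2-1, NAPSA and SFTPB were all under 1 CPM in both PC9 libraries. Summed fibroblast markers (COL1A1, COL1A2, DCN and PDGFRB, with 1 to 3 of 4 above 1 CPM and DCN at 0 reads in both PC9 libraries) stood at 18.3 to 218.4 CPM in resistant and 14.9 to 92.3 CPM in parental libraries. Of the leukocyte genes, CD3E and PTPRC were at 0 reads in both H1975 libraries and CD3E in both HCC827 libraries. CD14, of the same list, had 11.6 CPM in H1975-OR and 9.25 CPM in H1975, and no more than 1.09 CPM in any HCC827 or PC9 library. Endothelial markers (PECAM1, CDH5 and VWF) summed to 0.900 to 5.71 CPM in resistant and 0.802 to 20.2 CPM in parental libraries. Mitochondrial genes took 6.62% of exon reads in HCC827-GR and 3.32% in HCC827, and the other pairs were closer. The part of these differences in the values below was not tested. In bulk RNA, fewer cells that express a gene and less RNA per cell cannot be told apart.

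The promoters of the 3 ID genes and of BAMBI are shown because ID1 was the member furthest below, and BAMBI among those furthest above, its parental level. Each runs from 250 bases before to 50 bases after the RefSeq start, 5′ to 3′ on the gene's strand (GRCh38.p14). Capitals mark GGCGCC, the GC-rich element bound by SMAD1 and SMAD5, and CAGAC or its complement GTCTG, the core of the SMAD-binding element. The ID1 window lies at chr20:31605039-31605338 on the plus strand, ID2 at chr2:8681806-8682105 on the plus strand, ID3 at chr1:23559452-23559751 on the minus strand and BAMBI at chr10:28677271-28677570 on the plus strand.
ID1: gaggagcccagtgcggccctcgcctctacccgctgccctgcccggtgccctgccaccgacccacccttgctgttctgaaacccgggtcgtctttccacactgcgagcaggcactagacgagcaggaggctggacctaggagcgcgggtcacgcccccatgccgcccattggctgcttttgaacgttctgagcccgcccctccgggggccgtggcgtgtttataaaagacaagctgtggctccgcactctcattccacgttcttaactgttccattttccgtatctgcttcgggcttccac
ID2: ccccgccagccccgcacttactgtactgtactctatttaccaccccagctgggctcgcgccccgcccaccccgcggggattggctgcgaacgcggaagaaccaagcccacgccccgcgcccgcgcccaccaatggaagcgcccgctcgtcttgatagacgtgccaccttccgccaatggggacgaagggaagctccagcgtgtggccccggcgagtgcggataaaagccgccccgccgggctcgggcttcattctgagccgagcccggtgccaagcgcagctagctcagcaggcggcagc
ID3: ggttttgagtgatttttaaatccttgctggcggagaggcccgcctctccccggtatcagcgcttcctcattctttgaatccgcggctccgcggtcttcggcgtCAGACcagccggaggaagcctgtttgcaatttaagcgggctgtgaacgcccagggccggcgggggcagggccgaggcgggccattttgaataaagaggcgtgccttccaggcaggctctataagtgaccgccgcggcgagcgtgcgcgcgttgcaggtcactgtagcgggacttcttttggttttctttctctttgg
BAMBI: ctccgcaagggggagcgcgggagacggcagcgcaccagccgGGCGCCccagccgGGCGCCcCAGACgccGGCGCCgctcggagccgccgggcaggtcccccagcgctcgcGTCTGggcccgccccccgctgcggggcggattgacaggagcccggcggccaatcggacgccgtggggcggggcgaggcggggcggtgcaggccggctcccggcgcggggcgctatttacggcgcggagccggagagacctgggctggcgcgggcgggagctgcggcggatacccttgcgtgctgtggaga
The BAMBI window held 3 GGCGCC and 2 CAGAC or GTCTG, and the ID3 window held 1 CAGAC. The ID1 and ID2 windows held neither. Both held 2 matches to the GC box, GGGCGG or CCGCCC, against 5 in BAMBI and none in ID3. Of 35116 promoters of this length, read on both strands, 19.2% held GGCGCC, 45.3% CAGAC and 45.0% the GC box. A match is a description and not a binding site, and the BMP-responsive elements described for ID1 lie further upstream than this window. Promoter entries matched 8 of the 10 genes, and BMP2 and BMP7 are named only. Of the members not shown, SMAD6 and BMPR1A held neither SMAD motif, and BMPR2 held 1 GGCGCC and 4 CAGAC or GTCTG. Entry 1 of BMP4 held 2 GGCGCC and 1 CAGAC or GTCTG, and its other entries held no GGCGCC and 1 CAGAC or GTCTG each. The windows shown were picked on the values of their genes, so nothing is read from motif against direction.

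ID1 was the highest of ID1, ID2 and ID3 in TPM in every parental library and the member that stood furthest from its parental level. ID1 (ENSG00000125968, hg38 chromosome 20, 31605283 to 31606515) had 25.2 CPM in HCC827-GR and 297 CPM in HCC827. It had 14.5 CPM in PC9-GR and 65.0 CPM in PC9, and 92.2 CPM in H1975-OR and 112 CPM in H1975. The level was lower in all 3 resistant libraries, by little in H1975, and HCC827-GR and PC9-GR lay below every parental library. The resistant-to-parental ratio was 0.0849 in HCC827 (95% counting interval 0.0784 to 0.0919), 0.223 in PC9 (0.198 to 0.251) and 0.822 in H1975 (0.779 to 0.867). In HCC827 that is 11.8-fold lower and in PC9 4.48-fold lower. The order over the libraries was HCC827, H1975, H1975-OR, PC9, HCC827-GR and PC9-GR, and with 1 library each no spread can be set on neighbours in it. ID1 had at most 1 intron read in any library.

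**Figure D1:**
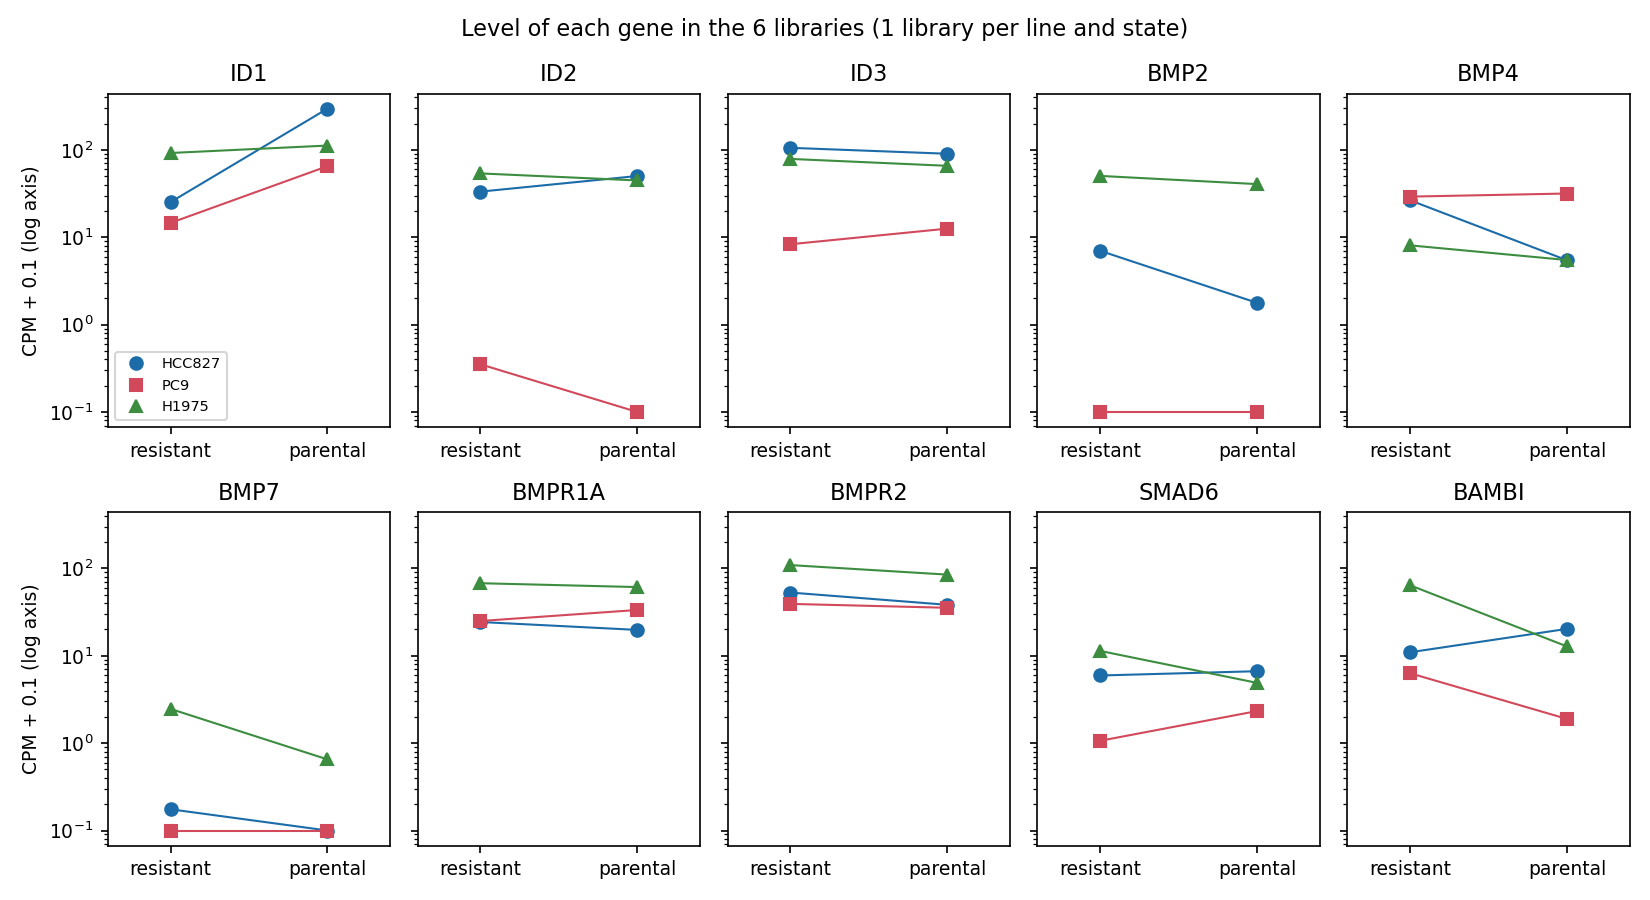
Level of each of the 10 genes in the resistant (left) and parental (right) library of each line, as CPM + 0.1 on a log axis, 1 point per library, with lines joining the libraries of a line. ID1 lies lower in each resistant library (14.5 to 92.2 CPM) than in its parental one (65.0 to 297 CPM), while BMPR2 lies slightly higher in each.

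ID3 and ID2 stayed within 2-fold of their parental level wherever both libraries had reads. ID3 (ENSG00000117318, chromosome 1, 23557918 to 23559794) had 106 CPM in HCC827-GR and 90.3 CPM in HCC827, 8.22 CPM in PC9-GR and 12.5 CPM in PC9, and 78.8 CPM in H1975-OR and 65.7 CPM in H1975. The resistant-to-parental ratios of ID3 were 1.17 (1.11 to 1.23), 0.660 (0.545 to 0.798) and 1.20 (1.12 to 1.28) in HCC827, PC9 and H1975. PC9 had the lowest ID3 in either state, and no line reached 2-fold. ID2 (ENSG00000115738, chromosome 2, 8678845 to 8684453) had 33.2 CPM in HCC827-GR and 50.2 CPM in HCC827, and 53.7 CPM in H1975-OR and 44.6 CPM in H1975. The ID2 ratio was 0.662 in HCC827 (0.608 to 0.721) and 1.20 in H1975 (1.11 to 1.30). ID2 in HCC827-GR and ID3 in PC9-GR were thus lower than in the parental line, as ID1 was, and the differences between genes were not tested. In PC9 ID2 rested on 6 reads in PC9-GR and 0 in PC9, at least 1.73-fold higher against a floor of 3 reads. ID2 was thus at or near 0 in both PC9 libraries.

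The make-up of the ID family differed between states on the TPM scale. The 3 ID genes together stood at 285 TPM in HCC827-GR and 842 TPM in HCC827, and ID1 accounted for 48.4 TPM of it in HCC827-GR and 602 TPM in HCC827. In PC9-GR the sum was 46.1 TPM with 63.8% from ID1, and in PC9 159 TPM with 84.1%. In H1975-OR it was 492 TPM with 45.9% from ID1, and in H1975 532 TPM with 55.3%. ID1 per ID3 was thus 0.242 in HCC827-GR and 3.33 in HCC827, 1.79 in PC9-GR and 5.29 in PC9, and 1.19 in H1975-OR and 1.73 in H1975. HCC827-GR was the one library in which ID3 exceeded ID1. The fourth family gene ID4, no member, had 34 reads in HCC827-GR and 461 in HCC827 but 258 in PC9-GR and 62 in PC9. The ID4 ratio of CPM was 0.0759 in HCC827 (0.0519 to 0.108), 3.60 in PC9 (2.72 to 4.83) and 0.936 in H1975 (0.835 to 1.05).

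**Figure D2:**
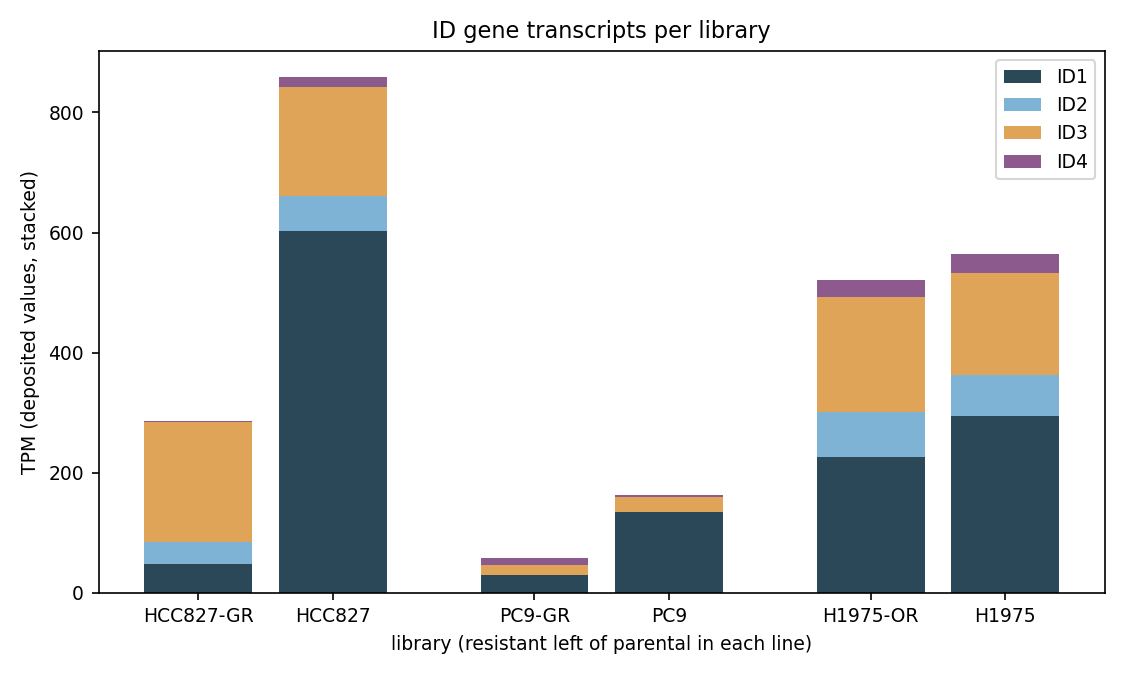
Deposited TPM of ID1, ID2, ID3 and ID4 stacked for each library, resistant left of parental in each line. The ID1 segment is the largest in HCC827 (602 TPM) and is 48.4 TPM in HCC827-GR, where ID3 (199.8 TPM) makes up most of the bar.

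Among the ligands, each line had its own pattern. BMP4 (ENSG00000125378, chromosome 14, 53949736 to 53958761), a BMP of lung development, had 26.4 CPM in HCC827-GR and 5.36 CPM in HCC827, a ratio of 4.93 (4.12 to 5.93). BMP4 had 29.1 CPM in PC9-GR and 31.6 CPM in PC9, where the counting interval of the ratio held 1 (0.826 to 1.03), and 7.98 CPM in H1975-OR and 5.39 CPM in H1975. HCC827-GR thus had about the level of both PC9 libraries. BMP2 (ENSG00000125845, chromosome 20, 6767664 to 6780280), the closest relative of BMP4, was highest in H1975, with 50.3 CPM in H1975-OR and 40.5 CPM in H1975. BMP2 had 6.90 CPM in HCC827-GR and 1.68 CPM in HCC827, a ratio of 4.11 (2.96 to 5.81) that rested on 184 and 46 reads. It had 0 reads in both PC9 libraries. BMP7 (ENSG00000101144, chromosome 20, 57168748 to 57266629) was low throughout, with 72 reads in H1975-OR and 13 in H1975, a ratio of 4.29 (2.35 to 8.43). It had 2 reads in HCC827-GR and 0 in HCC827 and in both PC9 libraries.

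On the TPM scale the 3 ligands together stood at 28.8 TPM in HCC827-GR and 6.37 TPM in HCC827, 28.2 TPM in PC9-GR and 31.2 TPM in PC9, and 53.3 TPM in H1975-OR and 43.7 TPM in H1975. BMP2 made up 15.7% of this in HCC827-GR and 18.3% in HCC827, and 79.3% in H1975-OR and 83.5% in H1975. The ligand sum was thus higher, and ID1 lower, in HCC827-GR than in HCC827.

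The receptors varied least. BMPR1A (ENSG00000107779, chromosome 10, 86756601 to 86932838), a type I receptor kinase, had 24.3 CPM in HCC827-GR and 19.7 CPM in HCC827, 24.9 CPM in PC9-GR and 33.4 CPM in PC9, and 67.6 CPM in H1975-OR and 61.1 CPM in H1975. BMPR2 (ENSG00000204217, chromosome 2, 202376936 to 202567751), the type II receptor that activates it, had 52.9 CPM in HCC827-GR and 38.2 CPM in HCC827, 39.2 CPM in PC9-GR and 35.3 CPM in PC9, and 109 CPM in H1975-OR and 84.9 CPM in H1975. BMPR2 was the one member higher in all 3 resistant libraries, with ratios of 1.38, 1.11 and 1.28. H1975 had the most of both receptors in either state, and no receptor ratio reached 2-fold in any line.

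The inhibitors went opposite ways between lines. BAMBI (ENSG00000095739, chromosome 10, 28677342 to 28682939), a membrane protein that resembles a type I receptor without the kinase, had 64.0 CPM in H1975-OR and 12.7 CPM in H1975, a ratio of 5.04 (4.46 to 5.72). BAMBI had 6.21 CPM in PC9-GR and 1.79 CPM in PC9, a ratio of 3.46 (2.40 to 5.11) on 148 and 37 reads, and 10.9 CPM in HCC827-GR and 20.2 CPM in HCC827, a ratio of 0.537 (0.465 to 0.621). H1975-OR held over 3 times the BAMBI of any other library. SMAD6 (ENSG00000137834, chromosome 15, 66702228 to 66782848), which blocks SMAD1 and its relatives inside the cell, had 11.3 CPM in H1975-OR and 4.80 CPM in H1975, a ratio of 2.35 (1.89 to 2.93). SMAD6 had 5.85 CPM in HCC827-GR and 6.56 CPM in HCC827, and 0.965 CPM in PC9-GR and 2.23 CPM in PC9, with ratios of 0.891 (0.715 to 1.11) and 0.433 (0.250 to 0.729).

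**Figure D3:**
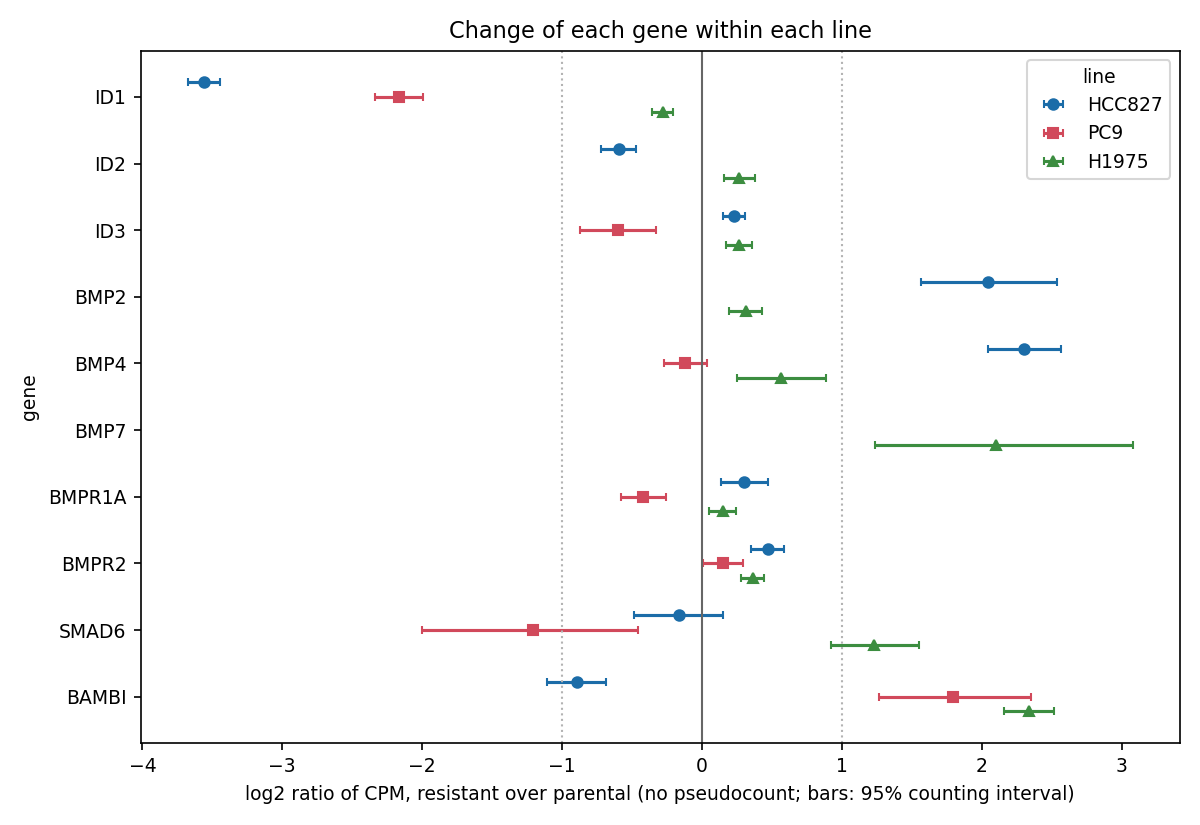
Log2 ratio of CPM, resistant over parental, for each gene and line, with 95% counting intervals (no interval covers replicate error) and dotted lines at 2-fold. Ratios with a library at 0 reads are not drawn. ID1 lies left of 0 in all 3 lines, and BAMBI lies left in HCC827 (ratio 0.537) and right in PC9 and H1975 (3.46 and 5.04).

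A gene was counted at 2-fold in a line when it had at least 10 CPM in 1 of the 2 libraries and a log2 ratio of CPM + 1 of at least 1 either way. In HCC827, 7 of the 10 members were measured by this minimum, with BMP4 higher (log2 2.11) and ID1 lower (−3.51). Of all 10298 genes measured there, 10.5% were higher and 7.65% lower, 18.1% in all. In PC9, 5 members were measured and ID1 was lower (−2.09), where 1.72% of 9911 genes were lower, 2.42% higher and 4.14% either way. In H1975, 8 were measured, with BAMBI (2.25) and SMAD6 (1.08) higher, where 1.76% of 9940 genes were higher, 3.22% lower and 4.98% either way. The member medians were 0.22, −0.41 and 0.28 in HCC827, PC9 and H1975, against −0.01, −0.02 and 0.06 for all genes. On the deposited TPM, SMAD6 in H1975 was at 0.95, under 2-fold. Since members were chosen on this contrast, nothing is read from these counts. BAMBI in PC9, BMP2 in HCC827 and BMP7 in H1975 were also past 2-fold but under 10 CPM.

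Over the 3 lines, edgeR's quasi-likelihood test with the line as a block called 0 of 13541 genes (0.0%; 502 at an unadjusted p under 0.05). DESeq2 called 58 (0.428%). By limma-voom 0 (0.0%) passed, and 763 had an unadjusted p below 0.05. The fitted log2 fold change of members (± SE, n = 3 lines) was −2.01 ± 0.70 for ID1, −0.03 ± 0.24 for ID3 and 0.17 ± 0.59 for ID2. It was 1.13 ± 0.56 for BMP2, 0.89 ± 0.54 for BMP4, 1.12 ± 0.75 for BAMBI and −0.02 ± 0.56 for SMAD6. The receptors had 0.01 ± 0.22 (BMPR1A) and 0.33 ± 0.17 (BMPR2), and BMP7 did not pass the filter on low counts. PC9 has no BMP2 reads, so the BMP2 value rests on the other two lines, and that of ID2 includes PC9 at 6 reads in PC9-GR and 0 in PC9. One line decided several sizes. ID1 stood at −1.21 without HCC827 and −2.85 without H1975, and BAMBI at 2.08 without HCC827, 0.71 without PC9 and 0.42 without H1975. BMP4 was at 0.21 without HCC827 and 1.42 without PC9, and BMP2 at 0.28 without HCC827 and 1.99 without H1975. SMAD6 was at −0.65 without H1975 and 0.52 without PC9. Of all 11481 genes with at least 10 CPM in 1 library, 13.6% were lower in all 3 resistant libraries, as ID1 was, and 14.3% higher in all 3, as BMPR2 was.

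Intron reads, counted separately in the same libraries, were not what the genes were chosen on, but come from the same RNA and the same contrast, so they are a description too. For SMAD6, intron reads outnumbered exon reads in 4 of the 6 libraries. SMAD6 intron reads were 133 in HCC827-GR and 350 in HCC827, 11 in PC9-GR and 73 in PC9, and 893 in H1975-OR and 326 in H1975. Scaled to all intron reads, the SMAD6 ratios were 0.382 (0.310 to 0.467) in HCC827, 0.160 (0.0766 to 0.304) in PC9 and 2.05 (1.80 to 2.34) in H1975. The SMAD6 intron ratio lay below 1 in both gefitinib-selected lines, farther from 1 than the exon ratio. BAMBI introns had 168 reads in H1975-OR and 32 in H1975, and 5 in HCC827-GR and 26 in HCC827, with ratios of 3.93 (2.68 to 5.93) and 0.193 (0.0579 to 0.511). BMP4 introns had 62 reads in HCC827-GR and 15 in HCC827, a ratio of 4.15 (2.33 to 7.86), close to the exon ratio of 4.93. BMPR2 differed between readouts in HCC827, where its intron ratio was 0.487 (0.366 to 0.642; 78 reads in HCC827-GR and 161 in HCC827) and its exon ratio 1.38. In H1975 the BMPR2 intron ratio was 1.72 (1.39 to 2.13) beside an exon ratio of 1.28. Whether reads were assigned by strand is not given in the sources used here, so introns that overlap other transcripts may hold their reads.

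**Figure D4:**
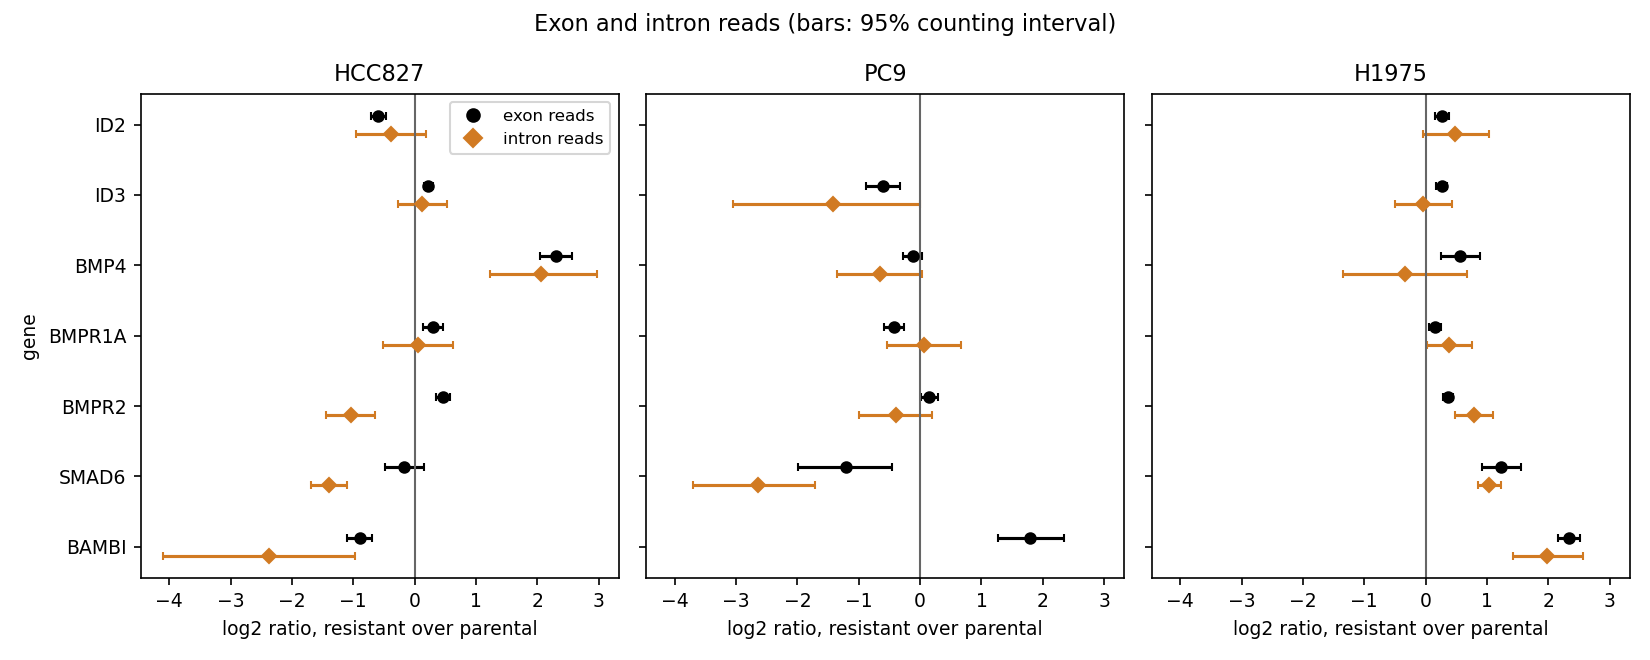
Log2 ratio of exon reads (circles) and intron reads (diamonds), resistant over parental, in each line for 7 of the 10 genes: those with enough intron reads in all 3 lines, and ID2 and BAMBI, with enough in 2, with 95% counting intervals. Intron ratios are drawn from at least 20 intron reads over the 2 libraries. BMPR2 in HCC827 lies right of 0 in exon reads (ratio 1.38) and left in intron reads (0.487), and BAMBI has no intron ratio in PC9.

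The other genes of the pathway were taken from 6 lists, 60 genes in all, none of them a member: ligands, receptors and co-receptors, SMADs and regulators, secreted antagonists, targets, and the E proteins. In HCC827, 7 were at least 2-fold higher in HCC827-GR and 1 lower, of 23 measured. PC9 had 1 higher and 2 lower of 22, and H1975 had 2 higher and 0 lower of 24. Of all genes measured, 10.5% were higher and 7.65% lower in HCC827, 2.42% and 1.72% in PC9, and 1.76% and 3.22% in H1975. The pathway medians were 0.55, −0.25 and −0.07 in that order of lines, against −0.01, −0.02 and 0.06 for all genes. These lists too were chosen with earlier results of these data known. Of the genes counted higher, BMP8B, RGMB, NOG and FST in HCC827 reached 10 CPM in the resistant library alone. So did ID4 in PC9 and ATOH8 in H1975. Of those counted lower, ID4 in HCC827 and TCF4 in PC9 reached it in the parental library alone. Nothing is read from these counts and medians. Of the 60 genes, 37 were kept for the edgeR test over the lines. None passed over all genes. In edgeR 2 were at an unadjusted p under 0.05, both higher, beside 502 of all 13541 genes. DESeq2 and limma-voom also called 0 of the 37. They had 2 and 3 at an unadjusted p under 0.05, beside 924 and 763 of all 13541 genes. Nothing is read from these counts either. Of the 28 that reached 10 CPM in a library, 4 were higher and 2 lower in all 3 resistant libraries, beside 14.3% and 13.6% of all genes. One of those 4, ATOH8, counts as higher in PC9 by 1 read against 0.

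Of 17 listed secreted antagonists and modulators, 6 were measured in HCC827. Of these 6, 4 were at least 2-fold higher in HCC827-GR, as were 10.5% of all genes measured. NOG and FST, among the 4, reached 10 CPM in HCC827-GR but not in HCC827, so nothing is read from this count. Noggin, encoded by NOG, binds BMPs and keeps them from their receptors, and had 18.1 CPM in HCC827-GR and 0.729 CPM in HCC827, a ratio of 24.8 (15.9 to 40.9) on 482 and 20 reads. NOG was lower in the other resistant libraries, with 16.8 CPM in PC9-GR and 27.7 CPM in PC9, and 11.7 CPM in H1975-OR and 15.2 CPM in H1975. FSTL3, a follistatin-like protein that binds activin, had 193.9 CPM in HCC827-GR and 24.2 CPM in HCC827. FSTL1, a secreted glycoprotein that binds BMP4, was higher in each resistant library, with 205 CPM in HCC827-GR and 49.96 CPM in HCC827, 196 CPM in PC9-GR and 129 CPM in PC9, and 362 CPM in H1975-OR and 168 CPM in H1975. FSTL1 had a fitted log2 fold change of 1.25 ± 0.33 (SE), higher in 3 of 3 lines, with an adjusted p of 0.903 in edgeR's quasi-likelihood test. The fourth, the activin-binding FST, had 449 reads in HCC827-GR and 106 in HCC827, but 20 in PC9-GR and 88 in PC9, and 0 in H1975-OR and 5 in H1975. FST was named after its values were seen. NBL1, another antagonist, differed most in PC9, by −0.83 on the log2 scale, and by −0.07 in HCC827 and −0.01 in H1975.

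**Figure D5:**
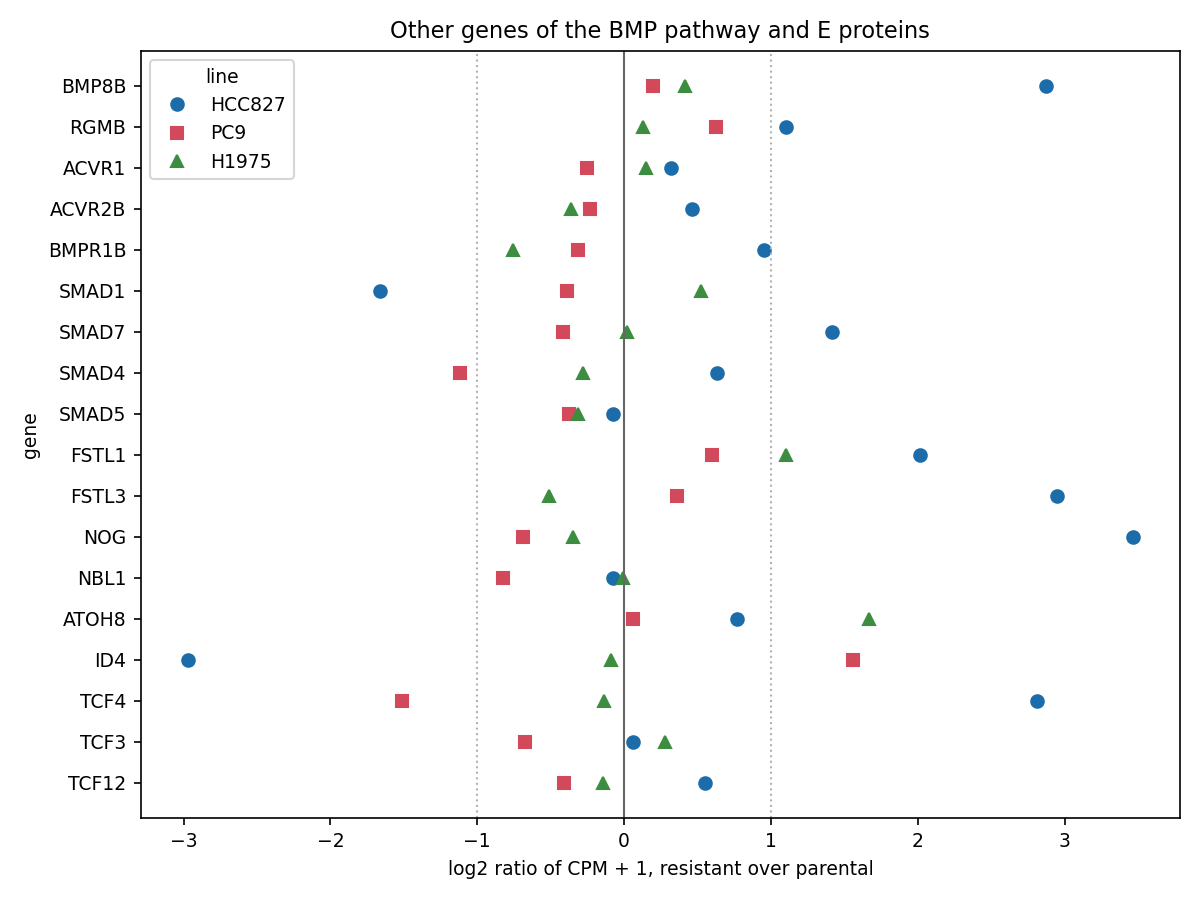
Log2 ratio of CPM + 1, resistant over parental, for the 18 other pathway genes that a rule on level and mean ratio picked, 1 point per line, with dotted lines at 2-fold. HCC827 lies apart from the other lines for BMP8B, FSTL3, NOG and ID4 (log2 2.88, 2.95, 3.46 and −2.97).

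Log2 ratios below are given for HCC827, PC9 and H1975 in turn. Of the signal carriers, SMAD1 had −1.66, −0.39 and 0.52, with 26 reads in HCC827-GR and 144 in HCC827. SMAD9, named after its values were seen, was under 10 CPM in every library and had 0.69, 0.44 and 0.64. SMAD5 had −0.07, −0.38 and −0.31, and the shared partner SMAD4 0.63, −1.12 and −0.28. The feedback inhibitor SMAD7 had 1.42, −0.42 and 0.02, so it was at least 2-fold higher in HCC827-GR, where SMAD6 was not. Among receptors, the co-receptor RGMB had 1.10, 0.62 and 0.13, BMPR1B 0.95, −0.32 and −0.76, ACVR1 0.32, −0.25 and 0.15, and ACVR2B 0.46, −0.23 and −0.36. The ligand BMP8B had 2.88, 0.20 and 0.41, but only 9.62% of its reads mapped uniquely, so its value is uncertain.

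Other BMP targets were few, since ID4 and ATOH8 alone of 10 listed genes reached 10 CPM in any library. ATOH8, a helix-loop-helix factor induced by BMPs, had 18.7 CPM in H1975-OR and 5.18 CPM in H1975, and 2.14 CPM in HCC827-GR and 0.838 CPM in HCC827. It had 1 read in PC9-GR and 0 in PC9. ATOH8 had a fitted log2 fold change of 1.67 ± 0.50 (SE), higher in HCC827 and H1975 while PC9 lay below the floor of 3 reads, with an adjusted p of 0.903 in edgeR's quasi-likelihood test. H1975-OR thus had more BAMBI, SMAD6 and ATOH8 than H1975, with ID1 slightly lower and ID2 and ID3 slightly higher. The H1975 ratio was 0.936 for ID4 and 1.02 for SMAD7. Of the listed targets under 10 CPM, HEY1, MSX1, MSX2 and DLX3 were lower in H1975-OR, and DLX2 and UNC5B higher.

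The E proteins, which ID proteins bind, also differed by line. TCF4 had 174 reads in HCC827-GR and 2 in HCC827, a ratio of 89.5 (24.4 to 745), but 6.92 CPM in PC9-GR and 21.6 CPM in PC9, and at most 4 reads in the H1975 libraries. TCF3, which encodes E12 and E47, had log2 ratios of 0.06, −0.67 and 0.28 in the same order, and TCF12 0.55, −0.41 and −0.14. Neither reached 2-fold in any line.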

How the data were processed

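The authors deposited 3 whole-number counts per gene and library, per the file headers all exon reads, those mapping uniquely, and intron reads, none normalized. The deposited TPM, per the file headers, come from the same files and were used for levels between genes. Trimmomatic, Bowtie2 and hg38 are named in the submitters' processing notes, with no role. The counting tool is not given in the sources used here.

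CPM were scaled by TMM in edgeR 4.0.16 (R 4.3.3). Within a line, log2 ratios had 1 CPM added, and read ratios carry Clopper-Pearson 95% intervals. The comparison over lines used the edgeR quasi-likelihood test after filterByExpr (count at least 10, total at least 15), with 2 residual degrees of freedom, two-sided, Benjamini-Hochberg adjusted over all genes at 0.05. The cell line is the block: the labels pair each subline with its parent, and the 2 libraries of a line deviated together (r = 0.616 to 0.866 across 11481 genes). The lines are the replicates, so p-values rest on the spread between lines. That spread is moderated over all genes in the fit, so it is not each gene's own spread alone. The fit was tested on simulated counts with a shared mean profile for all lines and the same fold in each. Differences between lines were thus not part of that test. Alternatives used DESeq2 1.42.0, limma 3.58.1 (voom), RLE or library size factors, TPM, unique reads, other filters and other pseudocounts.

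Members and gene lists were chosen with earlier results of these data known. Named pathway genes are up to 4 per list by mean log2 ratio among those with at least 10 CPM in 1 library. Promoters are from RefSeq (GRCh38.p14). One marker result is not reported here.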

Additional observations from a re-analysis of the deposited data

Results flagged for a closer look

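Of the 10 members and 18 named pathway genes, 3 had both gefitinib-selected lines on one side of their parental libraries and the osimertinib-selected line on the other, and this difference between the lines was not tested. The share of all genes with such a split was not counted, so nothing is read from the number 3. On the log2 scale SMAD6 was at −0.14 (HCC827) and −0.72 (PC9), against 1.08 (H1975), and its counting interval in HCC827 held a ratio of 1 (0.715 to 1.11). SMAD1 was at −1.66 (HCC827) and −0.39 (PC9), against 0.52 (H1975). SMAD6 and SMAD1 were both under 10 CPM in HCC827 and PC9. FSTL3 was at 2.95 (HCC827) and 0.36 (PC9), against −0.51 (H1975). With 1 osimertinib-selected line, drug, EGFR mutation and line cannot be told apart.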

How the results depend on the processing

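The count of genes called over the lines was 0 in edgeR under every scaling, filter and read choice tried, with no replicate block (0) and without each line in turn (0 each), and also in limma-voom. It was 58 in DESeq2, and the cause was not tested. With no replicate block, 47 genes were at an unadjusted p under 0.05, against 502 with it. With no minimum CPM the number of other pathway genes at 2-fold was 14 in HCC827 (8 with the minimum) and 5 in PC9 (3), and that of members in PC9 was 2 (1), since low genes then enter. With the deposited TPM, 1 member (2 with CPM) and 1 other pathway gene (2) were at 2-fold in H1975. SMAD6 there was both under 10 TPM (7.81 TPM in H1975-OR) and under 2-fold (log2 0.95). Of 117 alternative values for the 20 measured line ratios of members, 93 stayed within the counting interval and 24 left it. None of those at 2-fold changed sign. Under 2-fold, intron reads changed the sign of BMPR2 in HCC827 and PC9, BMPR1A in PC9 and ID3 in H1975. Of 97 alternative fitted values, 95 moved by less than 1 SD of the line ratios. The others were BMP2 without HCC827 (0.28) and without H1975 (1.99). That SD comes from the same lines, so leaving out a line could hardly move a value past it. Nothing is thus read from this count for the fits without a line. Single libraries and levels under 10 CPM limit most values.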

Other observations

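Each member with at least 10 CPM in a library was set against the non-members among the 11481 such genes. The measure was the root-mean-square difference of log2(CPM + 1) over the 6 libraries, after centring each gene on its mean. A member could thus not come out nearest to another member. The 6 libraries share a line in pairs, and no function is read from likeness. Nearest to ID1 were MBOAT1, SYT12 and PHLDA2, at 0.617, 0.637 and 0.655 log2 units. SYT12 had 3.45 CPM in HCC827-GR and 37.5 CPM in HCC827. Nearest to ID2 were DPP4 (0.160), CX3CL1 (0.196) and MID1IP1 (0.222), each of which was at most 1.05 CPM in both PC9 libraries. BAMBI was nearest to MX1 (0.418), IFI6 (0.437) and HLA-F (0.529), and MX1 had 81.3 CPM in H1975-OR and 13.4 CPM in H1975. SMAD6 was nearest to NFKBIA (0.168), with 175 CPM in H1975-OR and 115 CPM in H1975, and ID3 to ALDOC (0.235). BMP2 was nearest to IFITM2 (0.351) and BMP4 to CARD10 (0.341). The receptors had closer matches, PRPF4B for BMPR1A (0.0736) and HOOK3 for BMPR2 (0.0967).

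The low ID2 of PC9 was followed to its neighbours after the values were seen. Within 500 kb of ID2 on chromosome 2 the files list KIDINS220 (8721081 to 8837630) and MBOAT2 (8852690 to 9003813). KIDINS220 had 27.4 CPM in PC9-GR and 28.9 CPM in PC9, below its 56.8 to 93.5 CPM in the HCC827 and H1975 libraries. MBOAT2 had 3512 reads in PC9-GR and 1960 in PC9, where ID2 had 6 reads (PC9-GR) and 0 (PC9). In CPM, MBOAT2 was higher in both PC9 libraries than in any HCC827 or H1975 library. KIDINS220 and MBOAT2 thus went opposite ways in PC9. The cause of the low ID2 was not tested.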
